A study of Mus musculus with 14 samples.

Results

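The transcripts of 8 genes known from the vessel wall were followed in CD11b+ cells of the mouse brain after traumatic brain injury (TBI): *Vcam1*, *Cldn5*, *Pecam1*, *Flt1*, *Kdr*, *Cdh5*, *Ly6a* and *Slco1a4*. They were taken as a listed set of symbols, each matched to 1 Ensembl row, and are 8 of the 33939 genes of the table. The question set for them was whether *Vcam1* follows the endothelial markers from library to library. CD11b+ microglia/macrophages were sorted with magnetic beads from the contralateral (CL) and the injured ipsilateral (IL) hemisphere, 3 days after controlled cortical impact, and Smart Seq v4 libraries of their RNA were sequenced. All mice were C57BL/6 males of 8 to 12 weeks that carried Cx3cr1-CreER+/- and received tamoxifen. The Ctrl mice carried the Cre alone, and the cKO mice carried in addition a floxed allele on both chromosomes, which the Cre removes in cells that express *Cx3cr1*, microglia and other myeloid cells. The Cre is thus not meant to act in endothelial cells. After tamoxifen the authors waited for peripheral *Cx3cr1*+ monocytes to be replaced before the injury. Each hemisphere gave 4 Ctrl and 3 cKO libraries, 14 in all from 8 mice, of which 6 gave both hemispheres. The mice 784 (IL alone) and 788 (CL alone), both cKO, were taken as different animals.

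Endothelial cells line the vessels of the brain and seal them with tight and adherens junctions to form the blood-brain barrier. They sense vascular endothelial growth factor (VEGF) through receptor tyrosine kinases, move solutes through dedicated transporters and, when activated by inflammation, display adhesion molecules that slow and arrest blood leukocytes. *Vcam1*, vascular cell adhesion molecule, is the best known of the inducible ones and binds the leukocyte integrin made of the *Itga4* and *Itgb1* products. Some of the 8 genes are not exclusive to endothelium: *Pecam1* is also carried by leukocytes and platelets, *Ly6a* (Sca-1) by blood progenitors and lymphocytes, and *Flt1* by monocytes. The authors count *Vcam1* among inflammatory genes of microglia/macrophages.

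Reads assigned to genes ranged from 12.2 to 41.6 M per library (1 M is 1e6 reads), with a median of 34.2 M, and values are reads per 1e6 assigned reads (CPM). A member's level corresponded to at least 111 reads in every library, except for *Cdh5*, where it lay between 19 and 160 reads. The sorted cells were mainly microglia/macrophages: 7 microglial markers, *Itgam*, *Cx3cr1*, *Csf1r*, *P2ry12*, *Tmem119*, *Aif1* and *Sall1*, summed to between 9448 and 24489 CPM. A list of 24 other endothelial genes, such as *Tie1*, *Tek*, *Egfl7* and *Esam*, summed to between 199.5 and 540.4 CPM, and *Slc2a1*, the glucose transporter that other cells express too, made up the largest share of that CPM sum in each group. Endothelial transcripts were therefore a minor part of each library. *Pglyrp1*, another of the 24, was highest in mouse 3541 and lowest in mouse 3551 within Ctrl CL, as was the neutrophil marker *Retnlg*. In mice 3541, 3545, 3546 and 3551 *Pglyrp1* had 69.2, 22.1, 28.3 and 7.72 CPM. *Retnlg* had 239.7, 92.0, 92.0 and 21.5 CPM there. The sum of the 24 genes thus need not reflect endothelium alone. In such bulk samples fewer endothelial cells and less RNA per cell cannot be told apart.

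Per kilobase of exon, so that genes can be compared, *Ly6a* and *Cldn5* had the highest levels among the 8 genes in every group. In the Ctrl CL libraries *Ly6a* averaged 27.6 ± 17.3 and *Cldn5* 25.6 ± 14.3 CPM per kb (SD, n = 4), with spreads that overlap. *Vcam1* followed with 11.1 ± 4.64, *Pecam1* with 7.15 ± 1.70 and *Slco1a4* with 4.86 ± 2.41 CPM per kb. *Flt1* was at 1.80 ± 0.80, *Kdr* at 1.09 ± 0.17 and *Cdh5*, the gene of VE-cadherin, at 0.48 ± 0.16 CPM per kb. In the cKO IL libraries *Kdr* reached 4.10 ± 0.93 and *Slco1a4* 0.95 ± 0.35 CPM per kb (SD, n = 3), so their order was turned.

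*Vcam1* (ENSMUSG00000027962; chromosome 3, 116109949 to 116129688, minus strand, GRCm38) was highest in the Ctrl CL libraries. Mice 3541, 3545, 3546 and 3551 had 153.9, 105.6, 74.8 and 61.2 CPM on the CL side and 46.1, 45.2, 56.9 and 33.1 CPM on the IL side. In cKO mice the CL libraries of 788, 791 and 3592 had 28.2, 39.4 and 28.1 CPM, and the IL libraries of 784, 791 and 3592 had 30.5, 46.5 and 31.7 CPM. Every Ctrl CL library thus lay above every library of the other 3 groups. The order of the means was Ctrl CL at 98.9 ± 41.1 (SD, n = 4), Ctrl IL at 45.3 ± 9.72 (n = 4), cKO IL at 36.2 ± 8.87 (n = 3) and cKO CL at 31.9 ± 6.51 CPM (n = 3). The neighbours Ctrl IL and cKO IL overlapped, and so did cKO IL and cKO CL. Between genotypes on the CL side the difference was -1.54 on the log2 scale (SE 0.34), or 0.344 times the Ctrl level, which missed the threshold in limma (adjusted p = 0.0689). With mice as a random effect over all 14 libraries it passed (-1.56, SE 0.30, limma adjusted p = 0.0147), in a fit that called 1.57% of 18476 genes. With another tool and the same thresholds, the authors name *Vcam1* among inflammatory genes reduced in cKO on the CL side. On the IL side the genotype difference was -0.30 (SE 0.23, limma adjusted p = 0.823).

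Between hemispheres *Vcam1* was lower on the IL side in each Ctrl mouse, at 0.30, 0.43, 0.76 and 0.54 times its CL level in mice 3541, 3545, 3546 and 3551. In the cKO mice 791 and 3592 it was 1.18 and 1.13 times the CL level on the IL side. With the mouse as a block, the Ctrl difference between hemispheres was -0.97 (SE 0.18, limma adjusted p = 0.0109), whereas the fit without it gave the same size with an adjusted p of 0.125 in limma. In cKO the difference was 0.25 (SE 0.21, limma adjusted p = 0.423). The difference between these differences, the genotype by hemisphere interaction, was 1.23 (SE 0.46) and did not pass (limma adjusted p = 0.9999, and 0.503 when mice were a random effect). The CL comparison of genotypes and the Ctrl comparison of hemispheres share the Ctrl CL libraries, so they are not independent.

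**Figure D1:**
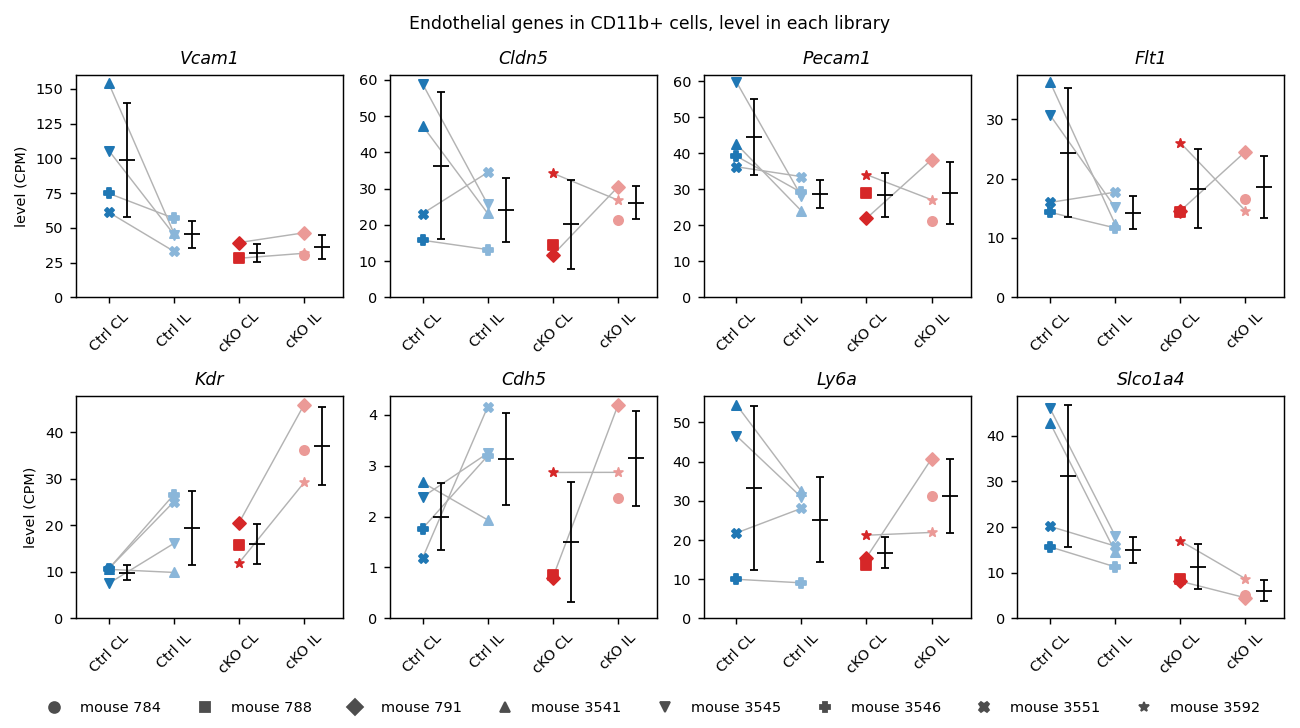
Level of each of the 8 genes in CPM (vertical axes, from 0) in the 14 libraries by group. Points are libraries with a marker for each mouse, grey lines join the hemispheres of 1 mouse, and black bars give the mean ± SD. *Vcam1* sits between 61.2 and 153.9 CPM in Ctrl CL and at most 56.9 CPM elsewhere, and *Kdr* is higher on the IL side in 5 of the 6 joined mice.

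Of the junction genes, *Cldn5* (ENSMUSG00000041378; chromosome 16, 18776847 to 18778262, plus strand), the main claudin of brain endothelium, was split within the Ctrl CL group. Mice 3541 and 3545 had 47.3 and 58.9 CPM, while 3546 and 3551 had 15.7 and 23.1 CPM. The cKO CL libraries had 14.4, 11.7 and 34.2 CPM, so the genotypes overlapped (-0.80, SE 0.50, limma adjusted p = 0.649). On the IL side Ctrl had 23.2, 25.7, 13.2 and 34.4 CPM and cKO 21.2, 30.4 and 26.8 CPM. The cKO range lay inside the Ctrl range there (0.18, SE 0.33, limma adjusted p = 0.953).

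*Pecam1* (ENSMUSG00000020717; chromosome 11, 106654217 to 106750628, minus strand), which joins endothelial cells to each other and to passing leukocytes, was at 42.6, 59.9, 39.3 and 36.3 CPM in Ctrl CL and at 28.9, 21.9 and 34.1 CPM in cKO CL. These groups did not overlap, and the difference was -0.64 (SE 0.25, limma adjusted p = 0.407). In Ctrl IL it was at 24.01, 28.1, 29.1 and 33.5 CPM, below every Ctrl CL library (-0.53, SE 0.21, limma adjusted p = 0.188). In cKO IL it was at 21.3, 38.3 and 27.1 CPM, which differed from Ctrl IL by -0.0070 (SE 0.21, limma adjusted p = 0.998). *Cdh5* (ENSMUSG00000031871; chromosome 8, 104101625 to 104144511, plus strand), the cadherin of endothelial adherens junctions, stayed between 0.80 and 4.18 CPM. Its Ctrl means were 2.0 ± 0.66 CPM in CL and 3.13 ± 0.91 CPM in IL (SD, n = 4), and its cKO means 1.51 ± 1.18 and 3.14 ± 0.94 CPM (SD, n = 3). The groups overlapped in every comparison. Its IL mean was the higher in both genotypes, by 0.50 (SE 0.24, limma adjusted p = 0.282) in Ctrl and 0.86 (SE 0.32, limma adjusted p = 0.0888) in cKO. Both *Vcam1* and *Cdh5* have an annotated antisense gene on the opposite strand, and without strand information reads of the pair cannot be told apart.

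The receptors of VEGF did not move alike. *Kdr* (ENSMUSG00000062960; chromosome 5, 75932827 to 75978458, minus strand), which carries most of the growth signal of VEGF in endothelium, was at 10.5, 7.52, 10.7 and 10.7 CPM in Ctrl CL and at 9.87, 16.1, 26.6 and 25.1 CPM in Ctrl IL. In cKO CL it was at 15.7, 20.5 and 11.9 CPM, and in cKO IL at 36.1, 45.9 and 29.2 CPM. Each cKO library was above each Ctrl library of the same hemisphere, the only member of which that held on both sides. The genotype difference was 0.63 (SE 0.23, limma adjusted p = 0.368) in CL and 0.99 (SE 0.29, limma adjusted p = 0.266) in IL. *Kdr* rose from CL to IL in cKO, by 1.25 (SE 0.24, limma adjusted p = 0.0101), or 2.38 times. In mice 791 and 3592, the cKO mice with both hemispheres, the IL level was 2.24 and 2.45 times the CL level. In Ctrl the difference was 0.89 (SE 0.24, limma adjusted p = 0.0543) and passed with the mouse as a block (0.89, SE 0.22, limma adjusted p = 0.0284). The Ctrl mice 3545, 3546 and 3551 had 2.14, 2.49 and 2.34 times the CL level, and mouse 3541 had 0.94 times.

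*Flt1* (ENSMUSG00000029648; chromosome 5, 147561604 to 147726011, minus strand), the receptor that binds VEGF tightly with little signal of its own, was at 36.3, 30.7, 14.3 and 16.0 CPM in Ctrl CL. On the IL side the same mice had 12.3, 15.2, 11.7 and 17.7 CPM. The cKO libraries had 14.3, 14.6 and 26.1 CPM in CL and 16.6, 24.5 and 14.6 CPM in IL. As for *Cldn5*, mice 3541 and 3545 stood above the other Ctrl mice on the CL side. No comparison passed for *Flt1*: the differences ranged from -0.58 (SE 0.35, limma adjusted p = 0.406) for IL against CL in Ctrl to 0.36 (SE 0.25, limma adjusted p = 0.794) for cKO against Ctrl in IL.

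*Ly6a* (ENSMUSG00000075602; chromosome 15, 74994877 to 74998031, minus strand), an interferon-inducible surface protein of brain endothelium, had 54.6, 46.6, 9.99 and 21.8 CPM in Ctrl CL and 32.4, 30.9, 9.08 and 28.1 CPM in Ctrl IL. In cKO CL it had 13.7, 15.5 and 21.2 CPM and in cKO IL 31.2, 40.8 and 21.9 CPM. Every cKO IL library was above every cKO CL library, and the difference of 0.92 (SE 0.26) passed in limma (adjusted p = 0.0361). With the mouse as a block it did not (0.79, SE 0.30, limma adjusted p = 0.117): mouse 791 went to 2.62 times and mouse 3592 to 1.03 times its CL level. Mouse 3546 was low on both sides, at 9.99 and 9.08 CPM.

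*Slco1a4* (ENSMUSG00000030237; chromosome 6, 141805440 to 141856199, minus strand), an organic anion transporter of the blood-brain barrier, was lower in cKO on both sides. It had 42.8, 46.0, 15.7 and 20.2 CPM in Ctrl CL and 8.72, 8.15 and 17.0 CPM in cKO CL, with an overlap of 1 cKO library. The difference was -1.33 (SE 0.43, limma adjusted p = 0.282). In Ctrl IL it had 14.6, 18.1, 11.3 and 15.8 CPM and in cKO IL 5.09, 4.52 and 8.70 CPM. These groups did not overlap, with a difference of -1.19 (SE 0.26), which missed the threshold (limma adjusted p = 0.132). In all 6 mice with both hemispheres the IL level was the lower, at 0.34 to 0.79 times the CL level. With the mouse as a block the hemisphere difference passed in Ctrl (-0.82, SE 0.21, limma adjusted p = 0.0319) and missed in cKO (-0.72, SE 0.23, limma adjusted p = 0.0724). The transcripts of *Slco1a4* share a stretch of 1321 bases at 90.2% identity with *Slco1a5*, whose level was at most 1.19 CPM.

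Across the 4 comparisons few members passed. Between genotypes in CL, 0 of the 8 genes were called, against 0.875% of the 16570 genes tested, and 4 had an unadjusted p under 0.05, as 1625 of all genes tested did. The genotypes did not overlap for 3 of the 8: *Vcam1* and *Pecam1* were lower in every cKO library, as 6.04% of all genes were, and *Kdr* was higher, as 3.98% were. In IL, 0 were called (0.658% of 16873 genes) and 2 had an unadjusted p under 0.05 (1502 of all genes), *Kdr*, higher in every cKO library (4.85% of all genes), and *Slco1a4*, lower in every one (5.48%). Between hemispheres in Ctrl, 0 were called (6.56% of 16376 genes) and 3 had an unadjusted p under 0.05 (3461 of all genes). There *Vcam1* and *Pecam1* were lower in every IL library (11.4% of all genes). With the mouse as a block 3 were called in Ctrl, *Vcam1* and *Slco1a4* lower and *Kdr* higher, where 20.5% of all genes were. In cKO 2 were called, *Kdr* and *Ly6a*, where 22.4% of 16758 genes were, and 4 had an unadjusted p under 0.05 (6132 of all genes). These 2 were higher in every IL library (18.1% of all genes), and only *Kdr* was called with the block (13.8% of all genes). For the interaction 0 were called, as over all genes (0.00% of 18476, 481 with an unadjusted p under 0.05), and *Vcam1* was the only member with an unadjusted p under 0.05. A share of 2 in 8 in cKO is near the background, and so are the counts of 0. In CL, 7 of the 8 log2 differences between genotypes were negative, with a median of -0.68 against -0.05 over all genes. In the interaction all 8 were positive, with a median of 0.67 against 0.04.

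**Figure D2:**
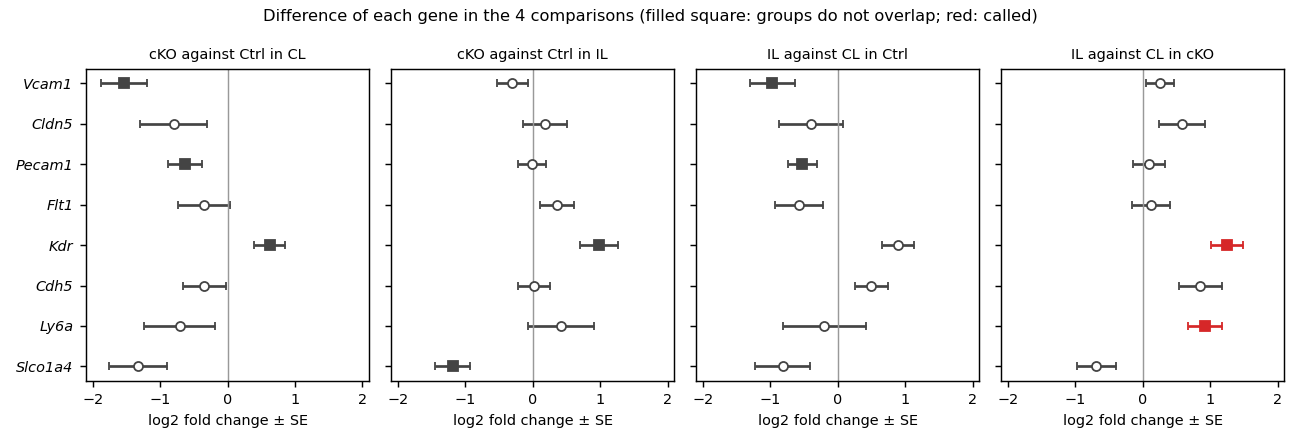
Log2 fold change of each gene (horizontal axes) with its SE from limma in 4 comparisons, named above the panels. Filled squares mark genes whose groups do not overlap and red marks the 2 calls, *Kdr* (1.25) and *Ly6a* (0.92) between IL and CL in cKO. *Kdr* lies to the right of 0 in each panel and *Slco1a4* to the left.

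Whether *Vcam1* followed the other members was first read from their correlation over the 7 CL libraries and, separately, the 7 IL libraries, each of another mouse. On the CL side 6 of the 7 members had a positive r with *Vcam1*. It was highest for *Slco1a4* (r = 0.86, exact permutation p = 0.0179; rho = 0.64, exact permutation p = 0.139) and *Pecam1* (r = 0.76, exact permutation p = 0.0466; rho = 0.71, exact permutation p = 0.0881). For the markers *Cldn5* and *Flt1* it was 0.66 (exact permutation p = 0.119; rho = 0.43, exact permutation p = 0.354) and 0.64 (exact permutation p = 0.126; rho = 0.32, exact permutation p = 0.498). *Ly6a* had 0.72 (exact permutation p = 0.0688; rho = 0.43, exact permutation p = 0.354) and *Cdh5* 0.55 (exact permutation p = 0.200; rho = 0.43, exact permutation p = 0.354). For *Kdr* it was -0.54 (exact permutation p = 0.211; rho = -0.61, exact permutation p = 0.167). Adjusted over the 14 pairs of both hemispheres, none passed, and the lowest adjusted value from these exact two-sided tests was 0.250. Without the 2 libraries farthest from the median of the other gene, r was 0.35 for *Slco1a4*, -0.33 for *Cldn5*, -0.65 for *Flt1* and -0.53 for *Ly6a*. For all 4 of these genes the libraries left out were those of Ctrl mice 3541 and 3545, so r over the 7 libraries depended on them. With cKO 3592 left out as well, r over 4 libraries was 0.79 for *Slco1a4*, 0.34 for *Cldn5*, -0.32 for *Ly6a* and -0.78 for *Flt1*. Other libraries were left out for the remaining members, so their values cannot be set beside these. Without Ctrl 3545 and cKO 791, r was 0.91 for *Pecam1* and -0.39 for *Kdr*. For *Cdh5*, r was 0.94 without Ctrl 3541 and cKO 3592, 0.29 with a pseudocount of 0.1 and 0.01 on the deposited CPM, where other pairs of libraries were the farthest.

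The CL libraries fall into the 2 genotypes, which *Vcam1* separated completely there, so the relation was also read within them. These values are a description. With values taken less their genotype mean, r was 0.78 for *Ly6a*, 0.76 for *Flt1*, 0.69 for *Slco1a4*, 0.58 for *Cldn5*, 0.48 for *Cdh5*, 0.47 for *Pecam1* and 0.40 for *Kdr*. Without the 2 libraries farthest from the median of each gene, it was 0.79 for *Cldn5*, 0.66 for *Ly6a*, 0.57 for *Cdh5*, 0.43 for *Flt1*, 0.38 for *Kdr*, 0.36 for *Slco1a4* and 0.15 for *Pecam1*, all still above 0. On the IL side, where *Vcam1* varied only from 30.5 to 56.9 CPM, r lay between -0.36 (*Kdr*) and 0.37 (*Pecam1*), with 0 of 7 at an exact permutation p under 0.05 and adjusted values from 0.692 upward. For *Cldn5* it was -0.21 and for *Slco1a4* 0.27. Ranks gave larger values there for *Kdr* (rho = -0.75, exact permutation p = 0.0663) and *Slco1a4* (rho = 0.64, exact permutation p = 0.139), but these depended on the scaling: on the deposited CPM rho was -0.14 and 0.036, and with values less their genotype mean it was 0.00 and -0.25. Without the 2 farthest libraries, r in IL was 0.76 for *Ly6a*, 0.68 for *Cldn5*, 0.47 for *Slco1a4*, 0.17 for *Cdh5*, -0.19 for *Pecam1*, -0.23 for *Flt1* and -0.73 for *Kdr*. Without the Ctrl IL library of mouse 3546, which had the fewest reads, *Ly6a* had r = 0.80 (exact permutation p = 0.0250, adjusted 0.175) and *Cldn5* 0.27. Leaving out the cKO IL library of mouse 791 instead gave r = -0.77 for *Kdr* (exact permutation p = 0.0208, adjusted 0.146). With all libraries, no relation passed adjustment in either hemisphere, and a difference between the hemispheres was not tested.

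**Figure D3:**
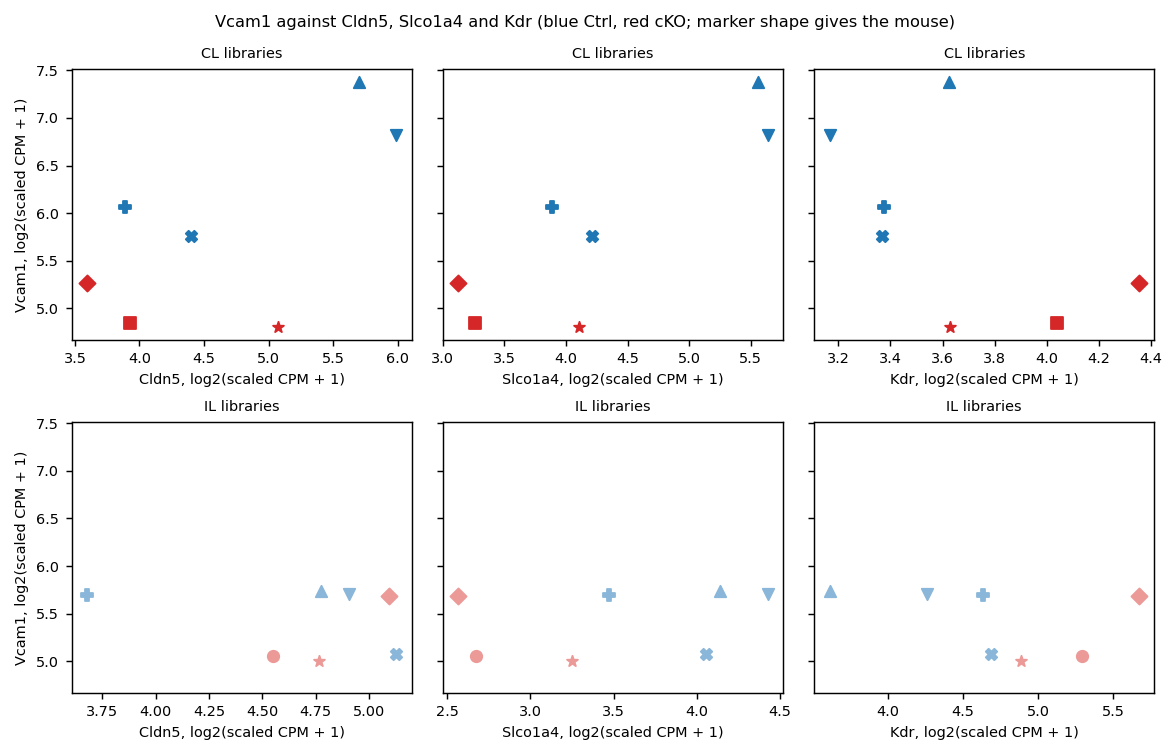
*Vcam1* (vertical axes) against *Cldn5*, *Slco1a4* and *Kdr* (horizontal axes) as log2(scaled CPM + 1), for the 7 CL libraries above and the 7 IL libraries below, Ctrl in blue and cKO in red. On the CL side the Ctrl mice 3541 and 3545 sit at the upper right for *Cldn5* and *Slco1a4*, and *Kdr* runs the other way. On the IL side r is -0.21, 0.27 and -0.36 in the same order.

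The cKO CL library of mouse 3592, which also stood apart in fibroblast markers (123.7 CPM), lowered the CL correlations. Without it, r with *Vcam1* was 0.967 for *Cdh5*, 0.941 for *Slco1a4*, 0.868 for *Cldn5*, 0.866 for *Flt1*, 0.818 for *Pecam1*, 0.801 for *Ly6a* and -0.622 for *Kdr*, and *Cdh5* passed adjustment (adjusted exact permutation p = 0.0389). This library had 34.2 CPM of *Cldn5*, above 2 of the 4 Ctrl CL libraries, and 28.1 CPM of *Vcam1*, below all of them. Its ratio of *Vcam1* to *Cldn5* was 0.821, against 1.79 to 4.75 in Ctrl CL, while the cKO libraries of mice 788 and 791 had 1.95 and 3.37, inside the Ctrl range. In CL the cKO minus Ctrl difference in mean log2 ratio lay between -2.24 and -0.16 for the 7 members, and the groups did not overlap for *Flt1* (-1.21, exact permutation p = 0.0571) and *Kdr* (-2.24, exact permutation p = 0.0571), the smallest two-sided value that 4 against 3 libraries allow. For *Cldn5* it was -0.74 (exact permutation p = 0.400), for *Pecam1* -0.91 (exact permutation p = 0.171) and for *Slco1a4* -0.16 (exact permutation p = 0.800). In IL it lay between -1.34 and -0.30 for 6 members and was 1.01 for *Slco1a4* (exact permutation p = 0.114). The groups did not overlap there for *Kdr* (-1.34, exact permutation p = 0.0571). Over the 14 ratio tests the lowest adjusted value was 0.267 from these exact permutation tests.

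The genotype difference of *Vcam1* was also fitted at an equal level of other endothelial transcripts, with the log2 of the sum of the 24 other endothelial genes as a covariate over all 14 libraries. On the CL side it went from -1.54 (SE 0.32, limma adjusted p = 0.0274, in a fit that called 1.43% of all genes) without the covariate to -1.18 (SE 0.28, limma adjusted p = 0.0640) with it. The marker *Cldn5* went from -0.80 to -0.03 (SE 0.27), *Ly6a* from -0.71 to 0.20 (SE 0.30) and *Cdh5* from -0.34 to 0.04 (SE 0.25). *Flt1* went from -0.35 to 0.25 (SE 0.16) and *Pecam1* from -0.64 to -0.30 (SE 0.18). *Slco1a4* went from -1.33 to -0.79 (SE 0.31, limma adjusted p = 0.333) and *Kdr* stayed at 0.63 (SE 0.30). On the IL side *Vcam1* stayed near -0.30 without and -0.28 with the covariate, and *Slco1a4* at -1.19 and -1.16 (limma adjusted p = 0.0685 with it). With *Cldn5* as the covariate, *Slco1a4* in IL was -1.33 (SE 0.21, limma adjusted p = 0.00513), and with the mean log2 value it was -1.12 (SE 0.23, limma adjusted p = 0.0317). With the sum as covariate it was -0.69 without the cKO IL library of mouse 791 (limma adjusted p = 0.330) and -1.52 without that of mouse 3592 (limma adjusted p = 0.0104). On the CL side *Vcam1*, *Slco1a4* and *Pecam1* thus kept their sign with smaller values, and *Cldn5*, *Cdh5*, *Ly6a* and *Flt1* were near 0 or above it. With *Cldn5* or the mean log2 value of the 24 genes as the covariate, *Vcam1* in CL was -1.33 (limma adjusted p = 0.0835) and -1.16 (limma adjusted p = 0.152), so with each of the 3 covariates it stayed above 1 in size and missed the threshold. The sum and the mean log2 value include *Pglyrp1*, and neither was fitted without it.

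Over all 14 libraries, the deviations of log2 values from their group means described how the members varied together beyond the groups. These points share mice and libraries, so the correlations are given as a description. The 6 members other than *Vcam1* and *Kdr* had r from 0.501 to 0.917 with each other over 15 pairs, with a median of 0.796. The closest pairs were *Cldn5* with *Flt1* (0.917) and with *Slco1a4* (0.901). *Vcam1* had r from 0.175 to 0.639 with the other 7, with a median of 0.446, and was closest to *Flt1*. *Kdr* had r from -0.382 to 0.114 with the 6, and so stood apart from them.

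**Figure D4:**
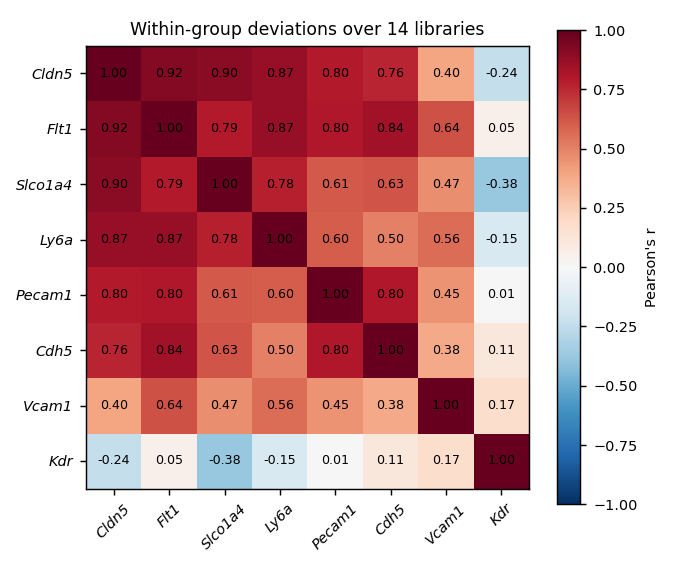
Pearson's r of each pair of the 8 genes over 14 libraries, from log2 values less their group means, on a colour scale from -1 to 1. The 6 genes at the upper left reach 0.501 to 0.917 with each other, *Vcam1* has 0.175 to 0.639 and the *Kdr* row is near or below 0 for most genes.

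The same measure placed the members among 13624 other genes with a mean of at least 1 CPM. The genes most like *Vcam1* were *Bin3* (r = 0.949), *Acot9* (0.946), *Fig4* (0.944), *Cap1* (0.938), *Il2rg* (0.929), *Ifi206* (0.925), *Oasl2* (0.924) and *Plekhb2* (0.924). None is a gene of the endothelial lists. *Flt1* ranked 1768th and *Cldn5* 4470th in likeness to *Vcam1*, with the other 5 members between rank 2629 and rank 6738. The genes most like *Cldn5* were *Wfdc1* (r = 0.967), *Cavin3* (0.962), *AU021092* (0.958), *Eipr1* (0.953), *Gja4* (0.951), *Slc9a3r2* (0.943), *Wnt5b* (0.938) and *Car4* (0.938). *Gja4* encodes a connexin of arterial endothelium and *Cavin3* a caveolar coat protein. *Flt1* ranked 20th, *Slco1a4* 35th and *Ly6a* 71st in likeness to *Cldn5*, whereas *Vcam1* ranked 5651st and *Kdr* 10094th.

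RefSeq promoters (GRCm38.p6) were at hand for 4 members: *Cldn5*, *Flt1* and *Slco1a4*, which varied together, and *Kdr*, which did not. The 250 bases before each start are shown so that these can be set side by side, 5′ to 3′ on the gene's strand. Capitals mark matches, on either strand, to the ETS motifs AGGAAG or CGGAAG, the SOX motif ACAATG, the GATA motif AGATAA, the NF-kB motif (GGGA, any 2 bases, then TTCC) or TATAAA.
Cldn5 promoter (chr16:18776597-18776846, plus strand): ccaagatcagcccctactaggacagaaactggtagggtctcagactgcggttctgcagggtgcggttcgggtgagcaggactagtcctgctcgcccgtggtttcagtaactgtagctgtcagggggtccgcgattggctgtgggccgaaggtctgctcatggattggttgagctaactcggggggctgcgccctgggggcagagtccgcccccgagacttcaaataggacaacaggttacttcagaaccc
Flt1 promoter (chr5:147726012-147726261, minus strand): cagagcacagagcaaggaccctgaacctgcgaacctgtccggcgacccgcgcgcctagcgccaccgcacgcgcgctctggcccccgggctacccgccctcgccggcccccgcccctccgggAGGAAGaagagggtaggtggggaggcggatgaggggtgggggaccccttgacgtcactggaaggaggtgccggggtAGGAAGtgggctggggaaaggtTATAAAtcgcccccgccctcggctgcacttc
Slco1a4 promoter (chr6:141856221-141856470, minus strand): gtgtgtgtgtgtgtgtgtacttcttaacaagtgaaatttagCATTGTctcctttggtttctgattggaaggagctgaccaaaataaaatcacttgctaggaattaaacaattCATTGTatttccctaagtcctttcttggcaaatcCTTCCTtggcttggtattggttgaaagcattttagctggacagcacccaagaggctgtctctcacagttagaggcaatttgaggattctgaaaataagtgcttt
Kdr promoter (chr5:75978456-75978705, minus strand): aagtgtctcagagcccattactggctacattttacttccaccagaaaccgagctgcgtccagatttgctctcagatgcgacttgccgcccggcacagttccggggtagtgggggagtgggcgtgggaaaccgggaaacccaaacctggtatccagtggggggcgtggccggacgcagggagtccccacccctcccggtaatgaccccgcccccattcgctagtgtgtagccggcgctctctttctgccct
*Flt1* holds AGGAAG at -129 to -124 and at -53 to -48 and TATAAA at -31 to -26, counted from its start. *Slco1a4* holds CTTCCT, the reverse complement of AGGAAG, at -104 to -99 and CATTGT, the reverse complement of ACAATG, at -209 to -204 and at -138 to -133. No match lies in these windows of *Cldn5* and *Kdr*. Among the 32851 mouse promoters of this length, 29.5% hold AGGAAG, 13.6% CGGAAG, 10.7% ACAATG, 9.99% AGATAA, 1.21% the NF-kB motif and 12.4% TATAAA, each on either strand, so the matches are common ones. A match is a run of letters and not a bound site.

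The other endothelial genes were read by their counts. Of the 24, 23 were tested in CL and all 23 had a lower mean log2 value in cKO, with a median of -0.66 against -0.05 over all genes, but 0 were called. Other cell lists shifted as much in the same libraries: 7 of 7 oligodendrocyte markers tested (median -0.68), 6 of 6 choroid plexus markers (-0.73) and 6 of 6 border macrophage markers (-0.97) had a lower mean, so the shift was not particular to endothelial genes. In IL, 14 of 23 were lower (median -0.07 against 0.01) and 0 were called. Between hemispheres 0 of 23 were called in Ctrl, where 6.56% of all genes were, and 5 of 23 rose in cKO, where 22.4% were, a share near the background. None was called for the interaction. The 5 were *Vwf*, the clotting factor stored in endothelium (1.36, limma adjusted p = 0.00841), *Adgrl4* (1.30, limma adjusted p = 0.0165), *Emcn* (1.06, limma adjusted p = 0.0398), *Esam* (1.04, limma adjusted p = 0.0375) and *Tie1* (0.84, limma adjusted p = 0.0480). Over all 14 libraries *Slc2a1* and *Ly6c1* had the highest mean CPM, though *Ly6c1* was not among the first 2 on either IL side. The transcription factor *Erg* was at or below 0.5 CPM in every library.

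Among 9 adhesion genes known from endothelium, *Selp*, the P-selectin that starts leukocyte rolling, rose from CL to IL by 3.15 (SE 0.29, limma adjusted p = 0.000479) in Ctrl and 3.14 (SE 0.31, limma adjusted p = 0.00183) in cKO. *Sele*, E-selectin, rose in cKO (1.66, limma adjusted p = 0.00512). *F11r*, a junctional adhesion molecule, was lower in cKO in CL (-1.10, limma adjusted p = 0.0161) and IL (-1.07, limma adjusted p = 0.00546), and fell from CL to IL in both genotypes (-0.65 and -0.63, limma adjusted p = 0.0419 and 0.00740). *Jam2* fell in Ctrl (-0.82, limma adjusted p = 0.0116). Of 8 tested between genotypes 1 was called on each side, against 0.875% of all genes in CL and 0.658% in IL. Between hemispheres in Ctrl 1 rose and 2 fell of 8 tested, where 6.56% of all genes were called. In cKO 2 rose and 1 fell of 9, where 22.4% were. The highest mean CPM over all 14 libraries, not set per length, belonged to *Icam1* and *F11r* in this list, which ranged from 355.5 to 798.9 and from 166.0 to 685.7 CPM. *Cd34* had 216.6 to 475.8 CPM and *Jam2* 63.0 to 180.8 CPM, while the endothelial marker *Cldn5* had at most 58.9 CPM. Which cells the reads of these 4 adhesion genes came from was not tested, so their changes cannot be assigned to endothelium. In Ctrl, where *Vcam1* was lower on the IL side in 4 of 4 mice, *Selp* was at most 1.28 CPM in CL and at least 8.84 CPM in IL.

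Of the 7 integrin genes whose products meet these ligands, 0 were called between genotypes on either side, 0 between hemispheres in Ctrl, where 6.56% of all genes were, and 0 for the interaction. In cKO, where 22.4% of all genes were called, *Itga4*, the alpha chain that binds VCAM-1, rose by 0.97 (limma adjusted p = 0.0289), *Itgb7* by 1.31 (limma adjusted p = 0.00676) and *Itgal* by 1.19 (limma adjusted p = 0.0148), and *Itga9* fell by 0.86 (limma adjusted p = 0.00614). In Ctrl the same genes had differences of the same sign, 0.83 (limma adjusted p = 0.114), 1.14 (limma adjusted p = 0.0573), 0.68 (limma adjusted p = 0.311) and -0.60 (limma adjusted p = 0.313). The highest mean CPM belonged to *Itgam*, which encodes CD11b itself, and *Itgb2*.

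In the VEGF and angiopoietin list of 12 genes, 0 were called between genotypes, against 0.875% of all genes in CL and 0.658% in IL. Between hemispheres 3 of 11 tested rose in Ctrl, where 6.56% of all genes were called. In cKO 5 of 10 rose, where 22.4% were. Whether this list differs from all genes was not tested. The ligand *Vegfa* rose from CL to IL by 3.01 (SE 0.29, limma adjusted p = 0.000568) in Ctrl and 2.46 (SE 0.30, limma adjusted p = 0.00255) in cKO. *Nrp2*, a co-receptor, rose by 1.70 (limma adjusted p = 0.00283) and 1.48 (limma adjusted p = 0.00183), and *Angpt2* by 1.07 (limma adjusted p = 0.00817) and 1.04 (limma adjusted p = 0.0425). In cKO *Nrp1* (0.55, limma adjusted p = 0.0264) and *Tie1*, counted above too, also rose. Over all 14 libraries *Nrp1* and *Vegfa* had the highest mean CPM of the list, *Vegfa* through its IL level. In the junction list of 9 genes, *F11r* was lower in cKO on both sides, *F11r* and *Jam2* fell from CL to IL in Ctrl, and in cKO *F11r* and *Tjp1* (-0.69, limma adjusted p = 0.0140) fell and *Esam* rose. All 9 were tested each time, beside the same shares of all genes. *F11r* and *Jam2* had the highest mean CPM of that list.

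Markers of other cells differed between the same libraries. The Ctrl CL libraries of mice 3541 and 3545, highest in *Vcam1*, had the highest sums of the 24 other endothelial genes (540.4 and 440.7 CPM, at most 420.4 elsewhere) and of 10 mural cell markers such as *Acta2*, *Vtn* and *Rgs5* (184.5 and 166.5 CPM, at most 121.1 elsewhere). Not every mural marker peaked there. *Pdgfrb* was at 12.5 and 8.90 CPM in these libraries and at 16.1 to 19.0 CPM in cKO CL. *Abcc9* and *Myh11* were higher in cKO CL too, and *Cspg4* was higher in every IL library. The 6 neutrophil markers such as *S100a8* and *S100a9* summed to 3504, 1527, 2213 and 1148 CPM in Ctrl CL, to between 943.7 and 1390 CPM in cKO CL and to between 729.2 and 934.1 CPM on the IL sides. *Csf3r*, 1 of the 6, followed another order in Ctrl CL, at 561.7, 489.5, 882.9 and 827.4 CPM. In the Ctrl IL library of mouse 3546 *Csf3r* was at 686.8 CPM and *S100a9* at 14.2 CPM. In Ctrl CL of mouse 3541 *S100a9* was at 1538 CPM. Of the oligodendrocyte, choroid plexus and border macrophage markers, *Mobp* passed between genotypes in CL (-1.70, limma adjusted p = 0.0464). In the interaction 8 of 8 oligodendrocyte, 6 of 6 border macrophage and 6 of 6 neutrophil markers had a positive value, as all 8 members did, and none was called. The microglial sum was 17202 to 24489 CPM on the CL side and 9448 to 15311 CPM on the IL side, in both genotypes. The 6 infiltrating monocyte markers summed to 110.2 to 684.2 CPM in Ctrl CL and 104.4 to 296.4 CPM in cKO CL. On the IL side they summed to 545.4 to 851.2 CPM in Ctrl and 518.2 to 741.7 CPM in cKO. Of these, 3 were called higher in IL in each genotype, where 6.56% of all genes were called in Ctrl and 22.4% in cKO. Fibroblast markers such as *Col1a1* and *Dcn* summed to 123.7 and 85.3 CPM in the CL and IL libraries of cKO mouse 3592 and to at most 34.7 CPM elsewhere. None of the 24 mural, neutrophil and fibroblast markers was at 0 in every library, and 1 of them passed between genotypes, the mural *Abcc9* (1.57 higher in cKO CL, limma adjusted p = 0.00603). The part of these cells in the values of *Vcam1* and the other members was not tested.

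**Figure D5:**
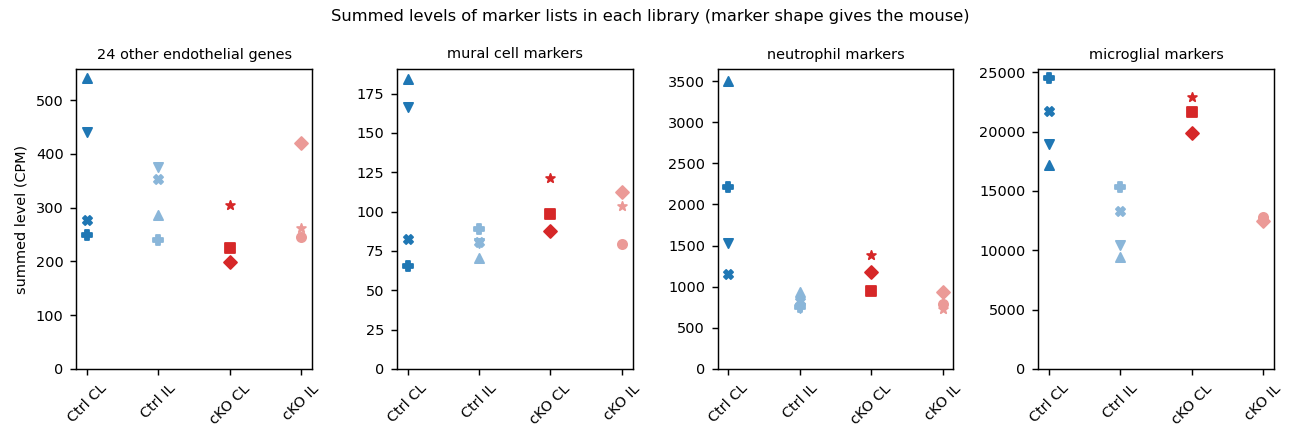
Summed level in CPM (vertical axes, from 0) of 4 marker lists in the 14 libraries by group, with a marker for each mouse. The Ctrl CL libraries of mice 3541 and 3545 lie highest for the endothelial (540.4 and 440.7 CPM) and mural lists, and the microglial sum is lower in each IL library than in each CL library.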

How the data were processed

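CD11b+ cells from CL and IL hemispheres were sequenced in 14 libraries, grouped by the genotype and hemisphere in the labels. The authors mapped reads with STAR to mm10 and used Partek Flow 8.0. The values that the authors deposited as raw counts sum to 1e6 in each library and are therefore CPM. Between 78.5% and 83.5% of values under 100 reads were whole multiples of a read's worth (tolerance 0.03), so no count test was run. Depth comes from that step. Further deposited tables hold the authors' fold changes and p-values and were not used. Of the columns, 0 lacked a sample. Symbols were matched for 33802 of 33939 identifiers.

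CPM were divided by unweighted trimmed-mean-of-M-values factors (30% and 5% trimmed) and taken as log2(CPM + 1), so fold changes of low genes are understated. Genes needed 10 reads' worth at median depth in a number of libraries equal to the smaller group, and 15 reads' worth in total. limma 3.58.1 (R 4.3.3, empirical Bayes with trend) fitted only the groups compared, except the interaction and covariate fits. Genes were called at 0.05 after Benjamini-Hochberg adjustment over all genes tested, with a fold change of 1.2 or more. Correlations and ratios used exact two-sided permutation tests over libraries (Python 3.11.15, scipy 1.17.1). Near copies of members were sought with blastn 2.17.0+. The fits were tested on simulated data.

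Hemispheres of the same mouse are paired by the mouse number in the labels. Their deviations from group means had correlations of 0.182 to 0.608 in the 6 mice, against -0.536 to 0.503 for 19 other pairs. The mouse was a fixed block or a random effect in alternatives.

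All 8 members are named with every value or their range, list genes when called or among the 2 of highest mean CPM, and the 8 genes most like *Vcam1* and *Cldn5*. Members and lists were chosen with earlier results of these data known. The gene deleted in cKO is not reported here.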

Additional observations from a re-analysis of the deposited data

Results flagged for a closer look

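The IL library of Ctrl mouse 3551 lay apart from the other Ctrl IL libraries in *Vcam1*, on log2 values after scaling. It had 5.07 on that scale, or 33.1 CPM as deposited, against 5.70 to 5.74 for the other mice. The gap to its nearest neighbour was 0.936 of the range of the 4 scaled values, above Dixon's 95% critical value for 4 samples. On the deposited CPM (45.2 to 56.9 for the other mice) the same ratio was 0.574, below that value, so this depended on the scaling. Of the 16 sets of 4 looked at on scaled values, 1 was beyond this limit, and chance alone gives about 1 in 20. On the deposited CPM the ratio was 0.953 for *Kdr* in Ctrl CL and 0.884 for *Ly6a* in Ctrl IL, both above the limit. The IL library of mouse 3551 had the highest *Cldn5* of the Ctrl IL group, at 34.4 CPM.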

How the results depend on the processing

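The number of members called depended on the fit. Between genotypes in CL it was 1 (*Vcam1*) when all 14 libraries were fitted together and 1 (*Vcam1*) with the replicate block, the mouse as a random effect. Leaving out a library gave 0 to 1, *Vcam1* being called without the Ctrl CL library of mouse 3551. In IL leaving out a library gave 0 to 1, *Slco1a4* being called without Ctrl IL 3546. Between hemispheres in Ctrl it was 3 with the replicate block as a fixed or random effect, 1 (*Kdr*) with all 14 libraries or with 10 reads' worth in every library, and 0 to 1 (*Kdr*, without Ctrl IL 3541) when a library was left out. In cKO it was 1 (*Kdr*) with either block, all 14 libraries, no filter beyond 1 read or a fold change of at least 2, and 1 to 4 without a library: 4 (*Cldn5*, *Kdr*, *Cdh5* and *Ly6a*) without cKO CL 3592, and *Kdr* alone without cKO CL 788 or 791 or cKO IL 784 or 791. The cause of these changes was not tested. The block changed no other call. The interaction gave 0 in every alternative.

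Of the correlations with *Vcam1* in CL, 0 to 1 passed without a library, *Cdh5* without cKO CL 3592 (r = 0.967, adjusted exact permutation p = 0.0389), and 0 passed in IL. The covariate fit of *Vcam1* in CL ranged from -1.41 to -0.93 without a library and passed without Ctrl IL 3546, Ctrl IL 3551 or cKO CL 791. In IL the same fit ranged from -0.47 to -0.079, and the comparison without a covariate from -0.52 to -0.18. A sum without *Slc2a1*, chosen after seeing the data, gave -1.13 (limma adjusted p = 0.212), and -1.11 (limma adjusted p = 0.0379) for *Slco1a4* in IL.

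Uncalled differences near 0 changed sign. With the mouse as a random effect, cKO against Ctrl in IL was 0.012 for *Pecam1* and -0.020 for *Cdh5*. Without a library the same comparison ranged from -0.26 to 0.17 for *Pecam1*, -0.18 to 0.15 for *Cdh5*, -0.13 to 0.35 for *Cldn5* and -0.056 to 0.69 for *Ly6a*. IL against CL ranged from -0.69 to 0.27 for *Ly6a* in Ctrl, and in cKO from -0.17 to 0.28 for *Pecam1* and -0.13 to 0.38 for *Flt1*. The interaction of *Slco1a4* ranged from -0.14 to 0.44. In the 4 comparisons and the interaction no scaling or pseudocount alternative changed a member's direction or call, but with the covariate *Cdh5* in CL was 0.04 and, with a pseudocount of 0.1, -0.03. Groups of 3 and 4 libraries limit all comparisons, and *Cdh5* rests on few reads.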
